A study of Mus musculus with 9 samples.

Results

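Aminoacyl-tRNA synthetases are the enzymes that join each amino acid to its transfer RNA. They were followed in low-input RNA sequencing of sorted mouse haematopoietic stem cells (HSCs). The genes were chosen by name: every listed gene whose full name holds "tRNA synthetase" and whose symbol lacks the pseudogene suffix -ps was taken. This gave 46 of 19454 listed genes, of which 19 encode cytosolic enzymes, 17 encode mitochondrial enzymes and 2 (Gars and Kars) serve both compartments from 1 gene. A further 4 are accessory proteins (Aarsd1, Aimp1, Aimp2 and Prorsd1), and 4 are processed pseudogenes that the name rule also caught. All 42 genes other than the pseudogenes passed the filter on low counts, as did the pseudogene Gm18829, while Gm14780, Gm18066 and Gm4849 did not.

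The design compares HSCs from mice with and without silencing of brain regions, and from silenced mice given spermidine, a polyamine. It holds 9 libraries in 3 groups of 3. The control group carries no brain intervention that the labels name, the inhibition group had chemogenetic inhibition of the mPFC and PAG brain regions, and the third group had the same inhibition with a spermidine supplement. All mice are labelled wild type, and each library was made from 1500 sorted HSCs from femur and tibia marrow with 12 cycles of PCR. The labels name no age, sex, source animal, dose, sort marker or batch, so p-values measure the spread between these libraries, which may be technical. Total counts per library ranged from 16096276 to 25360256.

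The cytosolic enzymes charge tRNAs for the ribosomes that translate nuclear messages, and several of them sit in a multi-synthetase complex held together by the scaffold proteins Aimp1 and Aimp2. The mitochondrial enzymes, encoded in the nucleus by a separate set of genes, charge the tRNAs used to make the few respiratory chain proteins encoded in mitochondrial DNA. Low protein synthesis is a known trait of HSCs, and many cytosolic synthetase genes are known targets of ATF4, the transcription factor of the amino acid response.

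ATF4 binds composite C/EBP-ATF elements with the letters TGATGNAA, so promoters of the synthetase genes were searched for these letters on both strands. Promoters here are RefSeq windows on GRCm38.p6 from 250 bases before to 50 bases after a gene's start. Windows were found for 32 of the 42 genes. The letters occurred in 4 of 12 cytosolic genes (Aars, Iars, Tars and Yars), in Gars among the 2 genes of both compartments, and in 0 of 14 mitochondrial and 0 of 4 accessory genes. Over all genes with a window, 4.51% held them. The stretches around 3 of these matches are printed, those that lie wholly upstream of the gene's RefSeq start. Capitals mark the match, which reads TGATGNAA on the opposite strand. The first lies 105 to 112 bases upstream of the RefSeq start of Aars (chr8:111033700-111033767, plus strand). The second lies 8 to 15 bases upstream of that of Tars (chr15:11399659-11399703, minus strand) and the third 23 to 30 bases upstream of that of Gars (chr6:55037941-55038000, plus strand). The mm10 gene annotation used for gene coordinates below starts Aars at chr8:111033144, so the Aars stretch lies inside the gene as annotated there.
Aars: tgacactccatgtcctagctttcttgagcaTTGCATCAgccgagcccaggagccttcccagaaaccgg
Tars: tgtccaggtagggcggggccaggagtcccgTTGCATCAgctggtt
Gars: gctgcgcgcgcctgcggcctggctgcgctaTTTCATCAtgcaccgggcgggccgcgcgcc
A match describes these letters in this window and shows no binding.

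Levels of different genes were compared as TPM, which is scaled for transcript length and library depth. In control libraries Lars2, the mitochondrial leucine enzyme, was listed at 111, 116 and 114 TPM, the highest level of any synthetase enzyme. The next enzymes in control were Rars2 (arginine) at 30.1, 36.2 and 35.2 TPM, Cars2 (cysteine) at 33.3, 35.3 and 33.5 TPM, and Dars (aspartate) at 31.9, 33.8 and 36.3 TPM, whose ranges overlap. At the other end stood Pars2 (proline, mitochondrial) at 0.206, 0.194 and 0.270 TPM. The accessory proteins Aimp2, at 110 to 113 TPM, and Prorsd1, a tRNA-editing domain protein at 105 to 108 TPM, were near the level of Lars2. Part of Lars2 is known to resemble mitochondrial 16S ribosomal RNA, with which reads can be shared, so its level is uncertain and sums are also given without it.

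**Figure D1:**
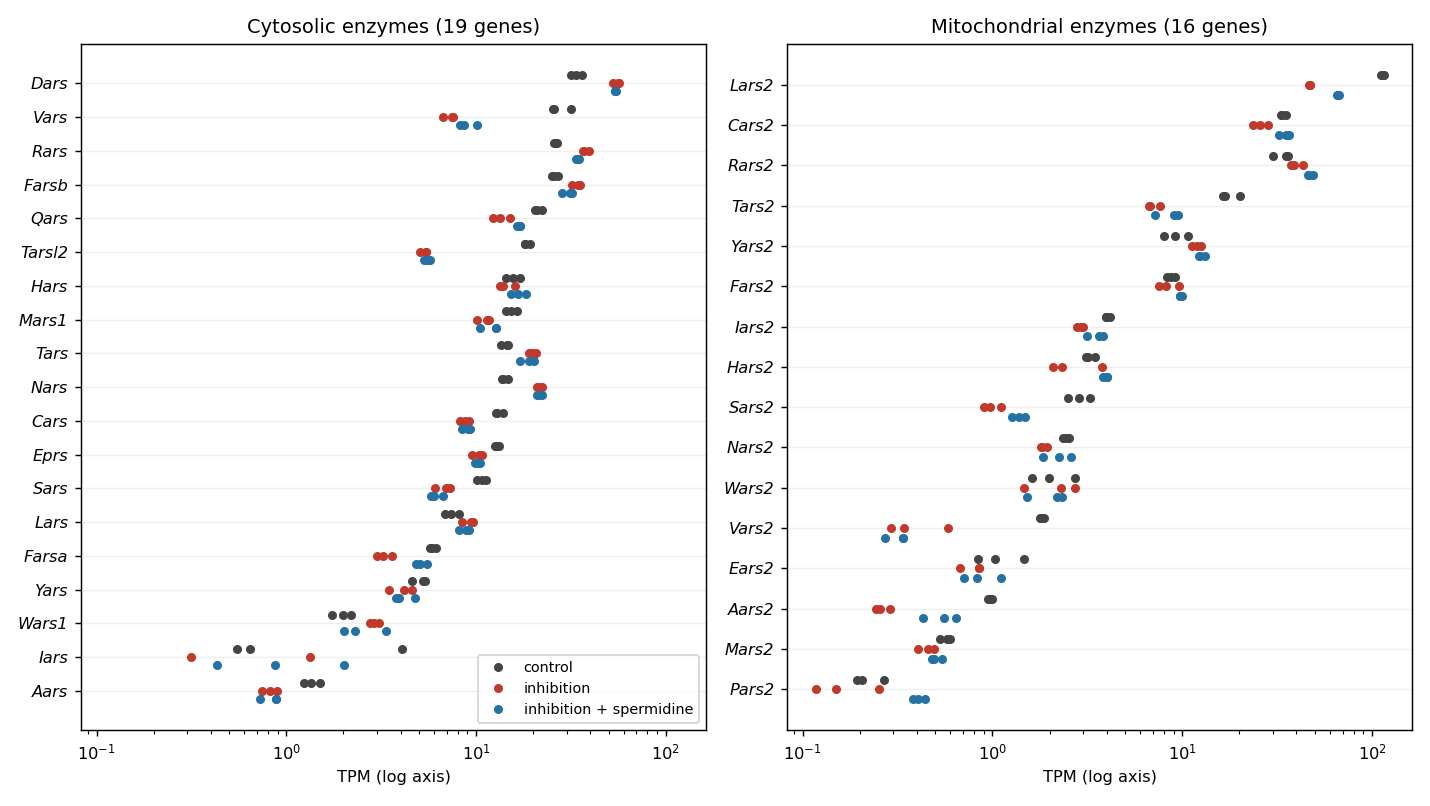
TPM of the 19 cytosolic (left) and 16 of the 17 mitochondrial (right) synthetase genes on a log axis, 1 point per library, 3 libraries per group, with genes ordered by their control mean. Lars2 stands at the top of the mitochondrial panel in all groups and is lowest in the inhibition libraries. Iars in inhibition replicate 1 is listed at 0 and is not drawn.

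Summed over genes, the 2 classes behaved differently. The 19 cytosolic enzymes summed to 272.4, 272.4 and 274.5 TPM in control, 264.7, 270.7 and 264.3 TPM with inhibition, and 268.0, 268.4 and 264.9 TPM with inhibition and spermidine. Every library of the inhibited groups lay below control, by a few TPM. The 17 mitochondrial enzymes summed to 233.0, 246.1 and 239.4 TPM in control, 156.9, 159.3 and 156.0 TPM with inhibition, and 196.8, 196.7 and 198.3 TPM with spermidine. These groups did not overlap, and the spermidine libraries lay between the other two groups.

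Lars2 made up 47.0 to 47.7% of the mitochondrial sum in control, 29.5 to 30.04% with inhibition and 33.2 to 34.2% with spermidine. Without Lars2 the mitochondrial sum was 126.0 ± 4.35 TPM (SD, n = 3) in control, 110.5 ± 1.56 with inhibition and 131.0 ± 1.31 with spermidine. The inhibition libraries stayed below control, and the control and spermidine libraries overlapped. The ratio of cytosolic to mitochondrial TPM was 1.14 ± 0.0314 in control, 1.69 ± 0.00603 with inhibition and 1.35 ± 0.0160 with spermidine. Without Lars2 these ratios were 2.17 ± 0.0753, 2.41 ± 0.00153 and 2.04 ± 0.0326. The sums are descriptions and carry no test.

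**Figure D2:**
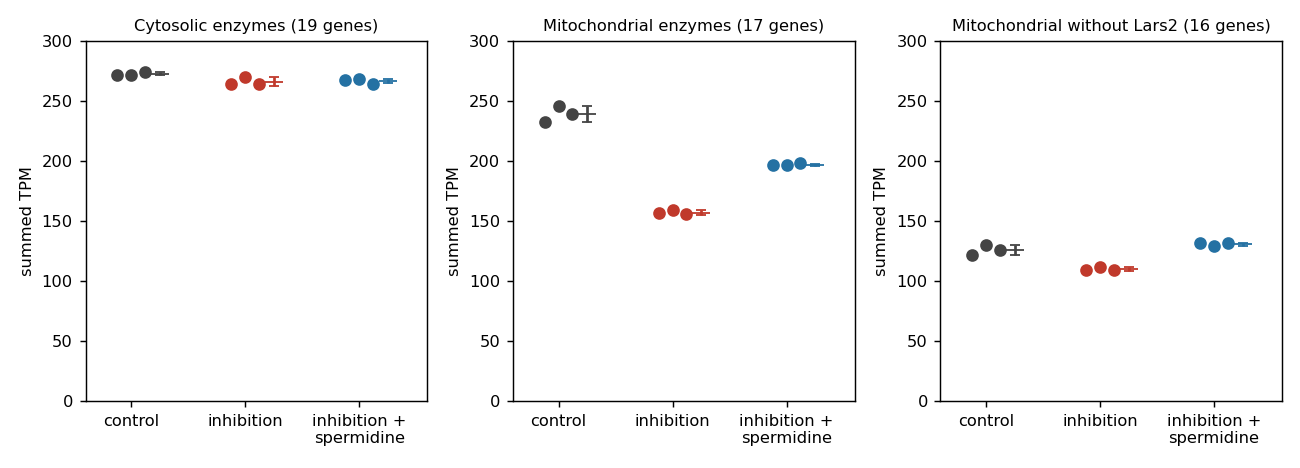
Summed TPM of the 19 cytosolic enzymes, the 17 mitochondrial enzymes and the mitochondrial enzymes without Lars2, 1 point per library, with a bar for the mean ± SD of 3 libraries. The cytosolic sums stay between 264.3 and 274.5 TPM, while the mitochondrial sums fall from at least 233.0 TPM in control to at most 159.3 TPM with inhibition.

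Changes between groups were tested per gene with edgeR's quasi-likelihood test on counts, with Benjamini-Hochberg adjustment over 14461 genes and a threshold of 0.05. Values per library below are CPM (a library's counts scaled to a common depth) with edgeR's TMM factors. The 3 comparisons share libraries, so they are not independent of each other. Bulk libraries cannot tell fewer cells of a type from less RNA per cell.

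Markers of other blood cells differed between the same groups. The 15 neutrophil granule genes took 0.601 to 0.614% of counts in control, 5.93 to 6.06% with inhibition and 2.57 to 2.67% with spermidine. The 11 B and plasma cell genes took 0.00779 to 0.00784%, 0.438 to 0.468% and 0.196 to 0.212% in the same order, and the 8 megakaryocyte and platelet genes 0.278 to 0.281%, 0.0135 to 0.0144% and 0.0159 to 0.0169%. The 7 listed erythroid genes took 0.164 to 0.171%, 0.0527 to 0.0571% and 0.0294 to 0.0314%, although the globin genes among them rose with inhibition. The 6 monocyte genes took 0.0132 to 0.0141%, 0.0301 to 0.0311% and 0.0201 to 0.0211%. The 8 T and NK cell genes took 0.119 to 0.129%, 0.178 to 0.191% and 0.112 to 0.123%, with control and spermidine overlapping. Nkg7 made up most of this share, at means of 1311, 1916 and 1026 CPM. Each of the other T and NK genes was low and had a higher mean with spermidine than in control, such as Cd3d at 4.75 against 2.34 CPM. No listed marker of these lists was at 0 in all libraries of a group. The 12 genes of the HSC list were all listed and took 0.0385 to 0.0405%, 0.0480 to 0.0489% and 0.0599 to 0.0606%. They include Flt3 and Cd48, which are not specific to HSCs. Cd48 had the highest level of the list, at 205.0, 239.5 and 182.3 CPM, so this share is no measure of HSC content. Some defining markers were scarce in control: Procr averaged 0.125 CPM there against 4.10 CPM with inhibition, and Hlf 2.50 against 22.3 CPM. Slamf1 went the other way, at 104.5 against 17.6 CPM. The part of these differences in the synthetase results was not tested.

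With inhibition against control, 11 of 17 mitochondrial enzymes fell and 3 rose, and 11 of 19 cytosolic enzymes fell and 6 rose. Over all genes tested 72.4% passed, 36.2% higher and 36.1% lower. The median log2 fold change was -0.58 for the mitochondrial and -0.43 for the cytosolic enzymes, against 0.02 for all genes tested. Which class had the lower median depended on the libraries and the measure. Without control replicate 3 the medians were -0.37 (mitochondrial) and -0.45 (cytosolic). With limma on log2(TPM + 1) they were -0.23 and -0.31 in the same order. Falls of at least 2-fold were found for 5 mitochondrial and 3 cytosolic enzymes, against 14.0% of all genes tested. The cytosolic count is 2 without Iars, whose call rests on 1 library, as described below. No enzyme of either class rose by 2-fold, against 15.0% of all genes tested.

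Lars2 (chr9:123366927-123462666, plus strand, mm10) had 631, 652 and 647 CPM in control and 248, 253 and 251 CPM with inhibition. The groups did not overlap, and the level was 2.57-fold lower with inhibition (log2 fold change -1.36, SE 0.0273, edgeR adjusted p = 5.34e-17). Aars2, the mitochondrial alanine enzyme, and Vars2, the mitochondrial valine enzyme, fell most in their class. Aars2 had 4.13, 4.18 and 4.02 CPM in control and 1.11, 0.955 and 1.00 CPM with inhibition, a 4.04-fold difference (SE of the log2 value 0.182, edgeR adjusted p = 3.03e-08). Vars2 had 5.70, 5.47 and 5.78 CPM in control and 1.17, 1.54 and 1.45 CPM with inhibition, a 4.01-fold difference (SE of the log2 value 0.155, edgeR adjusted p = 3.88e-09). Both are low genes, but every control library lay above every inhibition library.

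Sars2 (serine) and Tars2 (threonine) completed the group with falls of at least 2-fold. Sars2 went from 6.55 ± 0.832 to 2.10 ± 0.219 CPM (SD, n = 3) and Tars2 from 25.4 ± 2.598 to 11.1 ± 0.562 CPM. Smaller falls were found for Cars2 (log2 fold change -0.87), Nars2 (asparagine, -0.75), Hars2 (histidine, -0.70), Ears2 (glutamate, -0.58), Mars2 (methionine, -0.37) and Iars2 (isoleucine, -0.26). On TPM the calls of Hars2, Ears2 and Mars2 were lost (limma on log2(TPM + 1), adjusted p = 0.262, 0.152 and 0.0948). Ears2 overlapped between the groups, and its call was lost without control replicate 3 (log2 fold change -0.36, edgeR adjusted p = 0.155) and without inhibition replicate 1 (-0.44, 0.0865). Iars2 shares 22.9% of its exon bases with Rab3gap2 on the opposite strand, and the labels state no strand-specific step.

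Among the mitochondrial enzymes that rose were Yars2 (tyrosine, log2 fold change 0.33) and Rars2 (arginine, 0.19). Yars2 had 16.3, 13.4 and 14.8 CPM in control and 17.9, 19.7 and 17.9 CPM with inhibition, so the groups were apart but close. Fars2 (phenylalanine), Wars2 (tryptophan) and Pars2 did not pass the test, with log2 fold changes of 0.04, -0.19 and -0.38.

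Among cytosolic enzymes the falls were led by Vars, the valine enzyme, and Tarsl2, a second cytosolic threonine enzyme. Vars (chr17:35000987-35016322, plus strand) had 54.9, 52.6 and 53.6 CPM in control and 13.5, 13.5 and 13.5 CPM with inhibition. This was a 3.97-fold difference (log2 fold change -1.99, SE 0.0622, edgeR adjusted p = 1.73e-14). Tarsl2 (chr7:65644898-65692091, plus strand) had 97.4, 90.4 and 89.7 CPM in control and 22.3, 24.9 and 23.5 CPM with inhibition (log2 fold change -1.96, edgeR adjusted p = 1.68e-15). In both genes the groups lay far apart compared with the spread among libraries.

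Farsa, the alpha chain of the phenylalanine enzyme, fell by 0.91 on the log2 scale, while Farsb, its beta chain, rose by 0.32. Farsa had 15.4, 15.8 and 16.4 CPM in control and 8.05, 9.14 and 7.95 CPM with inhibition, and Farsb 63.4, 64.9 and 67.1 against 83.4, 83.0 and 78.2 CPM. The 2 chains of 1 enzyme thus passed the test in opposite directions, with no overlap of groups in either. Qars (glutamine, log2 fold change -0.79), Sars (serine, -0.74), Yars (tyrosine, -0.63), Aars (alanine, -0.63, sharing 14.3% of its exon bases with Exosc6), Cars (cysteine, -0.59), Eprs (glutamate and proline, -0.43) and Mars1 (methionine, -0.42) also fell. Of these, Yars lost its call on TPM (limma on log2(TPM + 1), adjusted p = 0.0722).

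The cytosolic enzymes that rose were those for asparagine, aspartate, arginine, the phenylalanine beta chain, threonine and leucine. Nars had 41.6, 41.3 and 41.4 CPM in control and 65.5, 63.1 and 62.6 CPM with inhibition, a 1.54-fold difference (SE of the log2 value 0.0422, edgeR adjusted p = 7.06e-10). Dars (chr1:128363707-128417368, minus strand) had 109, 116 and 116 CPM in control and 169, 170 and 164 CPM with inhibition, a 1.47-fold difference (edgeR adjusted p = 1.30e-10). Rars rose by 0.41 and Tars by 0.28 on the log2 scale. Lars rose by 0.18 (edgeR adjusted p = 0.0244) with overlapping groups, and leaving out control replicate 2 or 3 or inhibition replicate 1 or 2 ended its call (edgeR adjusted p = 0.0762 to 0.129). Hars and Wars1 (tryptophan) did not pass.

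Iars, the cytosolic isoleucine enzyme, was called lower with a log2 fold change of -4.49 (edgeR adjusted p = 0.00558), and that call rests on 1 library. Its estimated counts were 3.04, 5.19 and 396.9 in control, 0, 6.76 and 11.7 with inhibition, and 4.22, 14.1 and 4.43 with spermidine. Only control replicate 3 was high, and no other library was above 14.1 counts, where 3 counts are taken as the floor. Without that library the log2 fold change was 0.44 (edgeR adjusted p = 0.662) against control for inhibition and 0.47 (edgeR adjusted p = 0.624) for spermidine. Of the other 18 cytosolic enzymes, 10 fell and 6 rose with inhibition, with a median log2 fold change of -0.43.

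**Figure D3:**
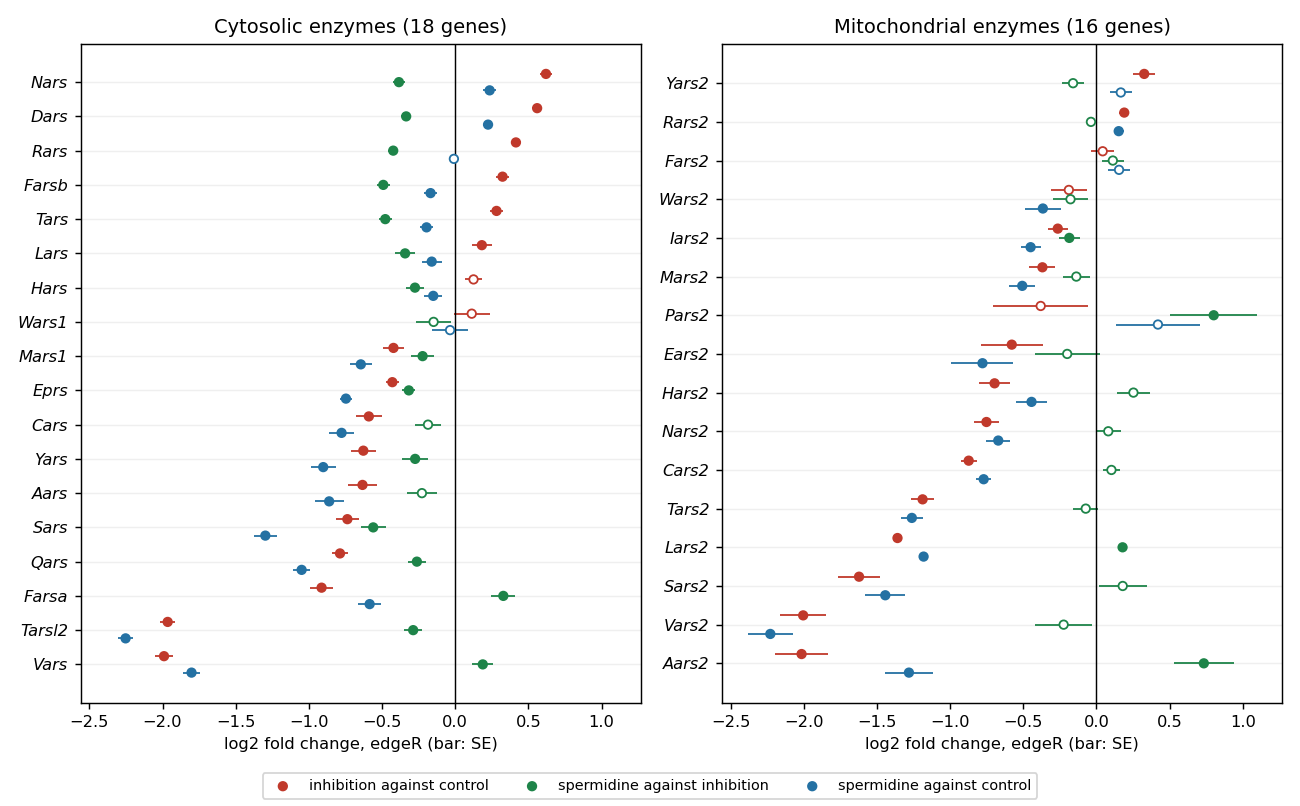
Log2 fold change (edgeR, bar: SE) of 18 cytosolic enzymes without Iars (left) and 16 of the 17 mitochondrial enzymes (right) in 3 comparisons. Filled points passed an adjusted p of 0.05, and genes are ordered by inhibition against control. Vars and Tarsl2 stand lowest on the left and Aars2 and Vars2 on the right, and the spermidine against inhibition points of the cytosolic enzymes lie mostly left of 0 under TMM scaling.

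Members of the multi-synthetase complex did not share a direction. Of its 7 enzymes that are only cytosolic, 3 rose with inhibition (Dars, Rars and Lars) and 4 fell (Eprs, Mars1, Qars and, on 1 library, Iars). Kars, the lysine enzyme, which also sits in the complex, fell by 0.18 on the log2 scale, from 87.2 ± 4.20 to 76.7 ± 1.67 CPM (SD, n = 3), but on TPM its log2 fold change was 0.04. The scaffold Aimp2 rose from 159.8 ± 1.71 to 187.5 ± 5.41 CPM (log2 fold change 0.23), although it shares 29.4% of its exon bases with Eif2ak1 on the opposite strand. Aimp1 passed with a log2 fold change of 0.08, and leaving out any 1 control or inhibition library ended that call (edgeR adjusted p = 0.0742 to 0.172). Outside the complex, the editing-domain proteins Aarsd1 and Prorsd1 fell by 0.74 and 0.40, and Aarsd1 shares 41.0% of its exon bases with Gm27029 on the same strand.

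Gars, the glycine enzyme of both compartments, had 18.9, 20.8 and 18.5 CPM in control and 21.6, 20.9 and 23.6 CPM with inhibition (log2 fold change 0.18, edgeR adjusted p = 0.0328). The groups nearly touch, and the call was lost without control replicate 1 or 3 or inhibition replicate 3 (edgeR adjusted p = 0.111 to 0.185). Among the 3 genes whose promoter stretches are printed above, Aars thus fell, Tars rose, and Gars rose by a margin that single libraries decide. Of the other genes with a match, Yars fell, and the call of Iars rests on control replicate 3.

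For 17 pairs of a cytosolic and a mitochondrial enzyme for the same amino acid, with Farsa standing for phenylalanine and Tars for threonine, both fell in 7 and both rose in 2, among them arginine. The 7 include the isoleucine pair, whose Iars call rests on control replicate 3, and the glutamate pair, whose Ears2 call was lost without single libraries. In 3 pairs (asparagine, leucine and threonine) the cytosolic enzyme rose and the mitochondrial one fell, and the tyrosine pair did the reverse. The ratio of TPM differed between the groups in these split pairs. Lars stood at 0.0659 times the level of Lars2 in control and 0.196 times with inhibition, Tars at 0.804 and 2.83 times Tars2, and Nars at 5.76 and 11.6 times Nars2. Threonine counts as split only through Tars. Tarsl2, the second cytosolic threonine enzyme, fell as Tars2 did and stood at 1.04 times Tars2 in control and 0.759 times with inhibition. Of the pairs that fell together, Aars stood at 1.41 and 3.13 times Aars2. The cytosolic enzyme had the higher mean TPM in 9 of 17 pairs in control and in 11 with inhibition, the added ones being threonine, again through Tars, and tryptophan. Eprs is the cytosolic enzyme of both the glutamate and the proline pair and is counted in each. Phenylalanine counts as lower only through Farsa, at 0.677 times Fars2 in control and 0.388 times with inhibition. Farsb stood at 2.97 and 4.02 times Fars2. The ratios were not tested.

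**Figure D4:**
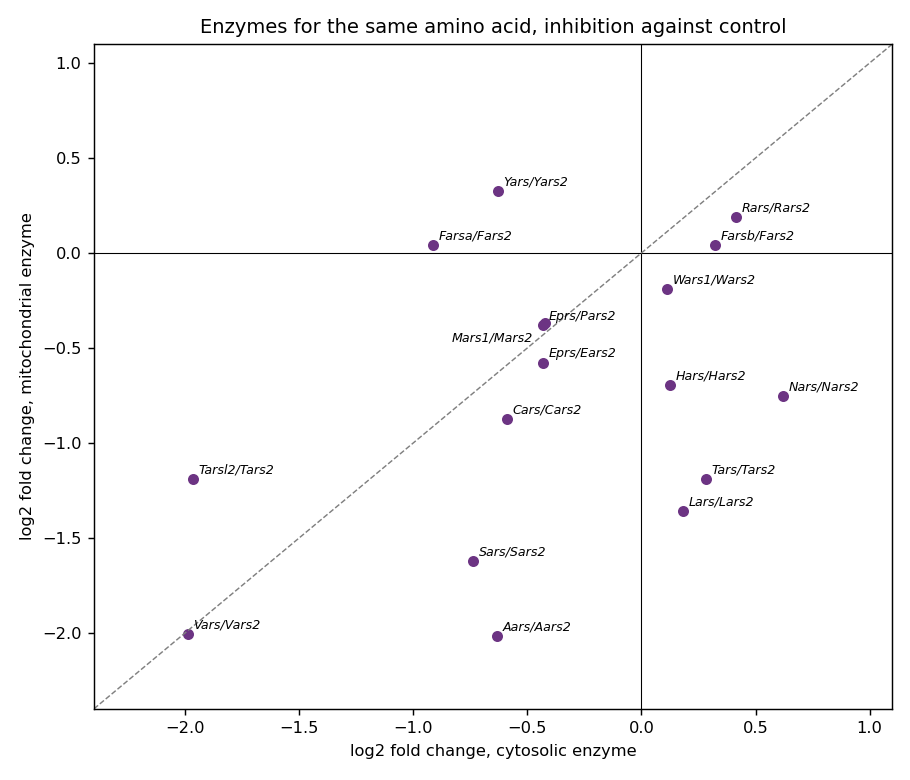
Log2 fold change with inhibition against control of the cytosolic (x axis) and the mitochondrial enzyme (y axis) for the same amino acid, 1 point per pair shown, without the isoleucine pair and 1 other, and with both phenylalanine chains and both threonine enzymes. The dashed line marks equal change. Nars/Nars2, Tars/Tars2 and Lars/Lars2 lie to the lower right, where the cytosolic enzyme was higher and the mitochondrial one lower with inhibition.

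The comparisons with the spermidine group depend on scaling. Total count scaling in place of TMM moved the log2 fold change of the median gene by 0.26 in both, and by 0.0018 in inhibition against control. With spermidine added to inhibition, 13 of 19 cytosolic enzymes fell and 2 rose against inhibition alone under TMM, where 58.1% of all genes tested passed (29.1% higher and 28.9% lower), but 5 fell and 2 rose under total count scaling, and 2 fell and 3 rose with limma on TPM. Under total count scaling 53.3% of all genes were higher and 12.4% lower. The cytosolic median lay 0.30 below that of all genes on the log2 scale under TMM, a distance that total count scaling leaves in place by construction, and 0.12 below it with limma on log2(TPM + 1). The mitochondrial enzymes counted 3 higher and 2 lower under TMM and 9 higher and 1 lower under total count scaling, and their median lay 0.06 below that of all genes under TMM and 0.08 above it with limma on log2(TPM + 1). Under TMM 1 mitochondrial enzyme fell by 2-fold and 0 rose by 2-fold, against 3.24% and 9.45% of all genes tested.

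Gars fell most among the enzymes that serve the cytosol. It had 21.6, 20.9 and 23.6 CPM with inhibition and 13.9, 11.9 and 13.5 CPM with spermidine (log2 fold change -0.75, SE 0.0742, edgeR adjusted p = 2.94e-07). The spermidine libraries also lay below all control libraries (log2 fold change -0.57). Sars (log2 fold change -0.56), Farsb (-0.49), Tars (-0.48), Rars (-0.42) and Nars (-0.38) followed under TMM. On TPM the calls of Sars, Tars and Nars were lost, with log2 fold changes of -0.11, -0.08 and -0.0074 (limma on log2(TPM + 1), adjusted p = 0.251, 0.352 and 0.902). Under TMM, Nars had 47.9, 47.4 and 51.3 CPM with spermidine, between its control and inhibition libraries. Rars had 79.9, 80.7 and 78.8 CPM, overlapping its control libraries of 79.1 to 81.1 CPM under TMM only. Against control its log2 fold change was 0.25 under total count scaling (edgeR adjusted p = 1.06e-05). On TPM it was 0.37 (limma on log2(TPM + 1), adjusted p = 2.05e-05).

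Farsa moved against its class. It had 10.4, 11.3 and 9.91 CPM with spermidine, above all inhibition libraries and below all control libraries (log2 fold change against inhibition 0.33, edgeR adjusted p = 0.00295). Vars also rose, by 0.19 (edgeR adjusted p = 0.0310), a call that was lost without any 1 inhibition library and without spermidine replicate 1 or 3 (edgeR adjusted p = 0.0785 to 0.189).

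Among mitochondrial enzymes Aars2 rose by 0.73 on the log2 scale to 1.37, 1.76 and 1.99 CPM, and Lars2 by 0.18 to 280, 287 and 284 CPM, and both stayed below every control library. Pars2 passed at 0.80 (edgeR adjusted p = 0.0290), from 1.05, 0.623 and 0.5 to 1.13, 1.37 and 1.16 CPM, and leaving out inhibition replicate 2 or 3 or spermidine replicate 2 ended its call (edgeR adjusted p = 0.101 to 0.126). Iars2 fell by 0.19 under TMM, and leaving out inhibition replicate 2 or 3 or spermidine replicate 1 ended its call (edgeR adjusted p = 0.0546 to 0.142), as did the replicate block (0.0501). On TPM Iars2 passed in the other direction, with a log2 fold change of 0.21 (limma on log2(TPM + 1), adjusted p = 0.0335). Under total count scaling its log2 fold change was 0.0757 (edgeR adjusted p = 0.357). Of the 17 enzymes 12 did not pass under TMM.

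With inhibition and spermidine against control, 15 of 19 cytosolic enzymes fell and 2 rose under TMM, and 13 of 17 mitochondrial enzymes fell and 1 rose, where 78.1% of all genes tested passed (41.0% higher and 37.1% lower). Under total count scaling 11 cytosolic enzymes fell and 3 rose, and 11 mitochondrial enzymes fell and 4 rose, with 53.3% of all genes higher and 25.5% lower. The medians lay below that of all genes by 0.70 (cytosolic) and 0.73 (mitochondrial) under TMM. Falls of at least 2-fold were found for 5 cytosolic (4 without Iars) and 5 mitochondrial enzymes under TMM, against 12.2% of all genes tested, and 0 rose by 2-fold, against 20.7%. The largest falls were those of Tarsl2 (log2 fold change -2.25), Vars2 (-2.23), Vars (-1.80), Sars2 (-1.44), Sars (-1.30), Aars2 (-1.28), Tars2 (-1.26), Lars2 (-1.18) and Qars (-1.05), leaving out Iars. For Vars2 the length that links TPM to counts also changed, by 0.72 on the log2 scale. Sars had 26.7 ± 1.67 CPM in control, 15.9 ± 1.77 with inhibition and 10.8 ± 0.651 with spermidine (SD, n = 3), with no overlap between any of the groups under TMM. On TPM its inhibition libraries (6.058 to 7.287) and spermidine libraries (5.795 to 6.706) overlapped. The 2 cytosolic genes that rose against control were Dars (log2 fold change 0.22) and Nars (0.23), and the mitochondrial one was Rars2 (0.15).

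Other genes of tRNA charging and translation were read from lists by function, under TMM. Of 28 genes of tRNA maturation, editing and amidation, 8 rose and 12 fell with inhibition against control, with a median log2 fold change of -0.11. Over all genes tested, 36.2% were higher and 36.1% lower in this comparison, to be read beside this and the next 3 lists. Trmt10c, which methylates mitochondrial tRNAs, rose from 60.6 ± 1.15 to 95.6 ± 0.333 CPM (SD, n = 3), and Mtfmt, which formylates the mitochondrial initiator tRNA, fell from 36.3 ± 1.88 to 20.5 ± 1.74 CPM. This list also holds the 4 accessory proteins. Of 9 cytosolic elongation factor genes 3 rose and 6 fell. Eef2, which moves the ribosome along the message, fell from 223 ± 11.7 to 69.5 ± 1.74 CPM (log2 fold change -1.68), and Eif5a, the factor that carries the spermidine-derived residue hypusine, rose from 546 ± 12.9 to 741 ± 17.7 CPM.

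Of 11 mitochondrial translation factor genes 3 rose and 4 fell with inhibition. Tufm, the mitochondrial elongation factor that delivers charged tRNAs, fell from 45.5 ± 1.61 to 24.3 ± 0.451 CPM (log2 fold change -0.91), and its exchange factor Tsfm from 34.7 ± 1.20 to 22.1 ± 1.03 CPM (-0.65). Of 34 tested genes of the ATF4 and amino acid response list, 10 rose and 15 fell, with a median of -0.20. Ppp1r15a, which restores translation after stress, fell from 203.7 ± 3.25 to 47.6 ± 0.876 CPM (log2 fold change -2.09).

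With spermidine against inhibition these lists followed the scaling, as did all genes tested, of which 29.1% were higher and 28.9% lower under TMM and 53.3% and 12.4% under total count scaling. Of the 28 tRNA genes 1 rose and 10 fell under TMM, and 15 rose and 1 fell under total count scaling. The 9 cytosolic elongation factors counted 1 higher and 5 lower under TMM and 5 higher and 4 lower under total count scaling, and the 11 mitochondrial factors 3 higher and 5 lower against 5 higher and 0 lower. Of the 34 ATF4 list genes 9 rose and 14 fell under TMM, and 17 rose and 6 fell under total count scaling.

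The genes named from these lists had the same direction under both scalings. Eif5a fell to 563 ± 7.06 CPM (SD, n = 3) under TMM, with a log2 fold change of -0.40 (-0.14 under total count scaling), and Tufm rose to 28.9 ± 2.14 CPM, with 0.25 (0.51). In the ATF4 list Atf3, a stress-induced factor, rose from 33.4 ± 1.62 to 58.6 ± 2.26 CPM, with 0.81 (1.08). Asns, which makes asparagine, fell from 45.2 ± 0.400 to 26.1 ± 1.17 CPM, with -0.79 (-0.53).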

How the data were processed

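Low-input RNA sequencing of 9 libraries of sorted mouse HSCs was analysed from 2 deposited tables. Per the submitters' processing notes the build was mm10 and the tools named are HTSeq 0.10.0, STAR 2.6.1d, edgeR 3.24.3 and Trim Galore 0.6.2, whose roles and order are not given. The authors deposited estimated counts per gene, not scaled between libraries, of which 48.2% were whole to within 1e-06, so the step that made fractional values is not given in the sources used here. The authors also deposited TPM, scaled within each library for length and depth, which sum to 937835 to 948801 over the listed genes.

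Samples were grouped by their titles. Estimated counts were rounded and tested in R 4.3.3 with edgeR 4.0.16 (quasi-likelihood test, a model with 1 mean for each group over the 9 libraries, TMM factors 0.931 to 1.14, filterByExpr, Benjamini-Hochberg over 14461 of 19454 genes, threshold 0.05). The 3 counts taken as a floor came to 0.117 to 0.184 CPM and cover counting error only, since PCR copies are not independent molecules. Exact permutation of 3 libraries against 3 cannot go below p = 0.1 and was not used. On simulated counts the test was checked for recovery of known changes. Only a small part of the genes was changed there, in random directions and in the inhibition group alone. That check therefore says nothing on the choice of scaling. Alternatives used limma 3.58.1 on log2(TPM + 1), DESeq2 1.42.0 and other scalings, filters and libraries. TPM also depends on each library's length estimates. Libraries of a group differed by more than sampling noise (chi-squared per gene 2.34 to 7.05), so none was taken as an exact copy of another. Since PCR also adds such spread, this check cannot tell technical from biological replicates. Coordinates and overlaps come from the mm10 gene annotation (1-based) and promoters from RefSeq.

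The genes and lists were chosen with earlier results of these data known. Every gene found by the name rule could be named, with full values for the largest changes in each class and direction and for pairs of enzymes. Of other lists, up to 4 genes with the smallest p could be named. Genes named from the marker lists, and the libraries named as deciding a call, were chosen after their values were seen. Values of 1 mitochondrial enzyme are not reported here by gene, although class counts and sums include it.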

Additional observations from a re-analysis of the deposited data

How the results depend on the processing

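Of 43 genes tested that the name rule found, 36 kept their direction and side of the threshold in inhibition against control when each of the 9 libraries was left out in turn, as did 32 in spermidine against inhibition and 38 in spermidine against control. Those that did not are Aimp1, Hars, Iars, Lars, Gars, Ears2 and Gm18829 in the first comparison. In the second they are Prorsd1, Aars, Mars1, Vars, Yars, Cars2, Hars2, Iars2, Pars2, Wars2 and Yars2, and in the third Hars, Iars, Lars, Wars2 and Yars2. The log2 fold change of Iars ranged from -5.34 to 0.44 against control for inhibition and from -5.23 to 0.47 for spermidine, with the positive values found without control replicate 3. Counts that moved by over 1.5 times were those of cytosolic enzymes higher (1 to 2) and mitochondrial enzymes lower (1 to 3) in spermidine against inhibition, and of mitochondrial enzymes higher in spermidine against control (1 to 2). The first fell to 1 without any 1 inhibition library or without spermidine replicate 1 or 3, the second to 1 without inhibition replicate 3 or spermidine replicate 1, and the third rose to 2 without control replicate 1. With 1 library left out, 2 remain in its group and the spread is pooled over all groups.

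Replicate numbers are shared by the groups, but the labels do not say that they mark an animal or day. The correlations of same-numbered libraries' deviations from their group means ranged from -0.0365 to 0.0526, none above 0.1, so the numbers were not taken to pair the samples. With the replicate block, 1 mitochondrial enzyme in place of 2 was lower in spermidine against inhibition, and all other counts of enzymes were those without it. Over all genes the replicate block gave 5191 higher and 5188 lower in inhibition against control, 4129 and 4132 in spermidine against inhibition, and 5889 and 5320 in spermidine against control.

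In inhibition against control, limma on log2(TPM + 1) for genes of mean TPM of at least 1 gave 3427 genes lower in place of 5227 and 6 mitochondrial enzymes lower in place of 11. Without that filter limma on log2(TPM + 1) gave 4417 genes and 8 mitochondrial enzymes lower. In spermidine against inhibition, DESeq2 gave 1 cytosolic enzyme higher and 1 mitochondrial enzyme lower, and testing without a filter on low counts gave 1 cytosolic enzyme higher.

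Total count scaling shifts every gene by one amount per library. In spermidine against inhibition it gave 7711 genes higher in place of 4213 and 1793 lower in place of 4183, 5 cytosolic enzymes lower, and 9 mitochondrial enzymes higher and 1 lower. In spermidine against control it gave 4 mitochondrial enzymes higher. Among genes that passed the test under TMM or under total count scaling, log2 fold changes that changed sign were, in spermidine against inhibition, those of Aimp2 (0.043), Prorsd1 (0.17), Mars1 (0.0381), Iars2 (0.0757) and Rars2 (0.22), and in spermidine against control those of Aimp1 (0.0029), Farsb (0.0942), Hars (0.11), Lars (0.10), Rars (0.25) and Tars (0.067).

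With limma on log2(TPM + 1), on log2(TPM + 0.1) and on log2(TPM + 1) with a mean TPM of at least 1, spermidine against inhibition gave 7997 and 7993 genes higher for the first 2, and 1333, 1315 and 1090 lower. It gave 2 cytosolic enzymes lower in each, 8, 8 and 6 mitochondrial enzymes higher and 1 lower in each. Spermidine against control gave 9239 and 9379 genes higher for the first 2, and 2918, 2858 and 2255 lower. It gave 6 cytosolic enzymes higher and 8 lower in each, 3, 3 and 2 mitochondrial enzymes higher, and 5, 5 and 3 lower.

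Among genes that passed with edgeR or with limma, log2 fold changes that changed sign with limma on log2(TPM + 1), followed by the value on log2(TPM + 0.1), are these, and those with the filter on mean TPM equal the first. In inhibition against control it was that of Kars (0.0356, 0.0367). In spermidine against inhibition they were Aimp2 (0.071, 0.0714), Prorsd1 (0.2211, 0.2232), Eprs (0.0012, 0.0013), Hars (0.2023, 0.2141), Mars1 (0.1057, 0.1136), Qars (0.2987, 0.3167), Tarsl2 (0.0385, 0.0449), Yars (0.02, 0.0248), Iars2 (0.2111, 0.2681) and Rars2 (0.2415, 0.2466). In spermidine against control they were Aimp1 (0.2006, 0.2027), Farsb (0.2236, 0.2307), Hars (0.0897, 0.0947), Lars (0.2001, 0.2224), Rars (0.3731, 0.3842), Tars (0.3721, 0.3924), Kars (0.0003, 0.0004), Cars2 (0.0237, 0.0243) and Hars2 (0.2234, 0.2783). Calls lost with the same sign on log2(TPM + 1) were those of Iars, Yars, Ears2, Hars2 and Mars2 in inhibition against control, of Aimp1, Dars, Lars, Nars, Sars, Tars, Kars, Eef1d and Lrpprc in spermidine against inhibition, and, among others, of Aarsd1, Prorsd1, Farsa, Iars, Yars, Ears2, Iars2, Mars2, Nars2 and Wars2 in spermidine against control. The cause of these changes was not tested beyond the shift of all genes given in the report. All alternatives listed were run. Depth limits the low genes most, among them Iars, Pars2, Ears2 and Aars2.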

Other observations

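Of the processed pseudogenes caught by the name rule, 3 had too few counts to test, and their highest value in any library was 0.332 CPM. Gm18829 was tested and averaged 0.466 ± 0.198 CPM (SD, n = 3) in control, 0.912 ± 0.0111 with inhibition and 1.06 ± 0.268 with spermidine. With inhibition against control its log2 fold change was 0.93 (edgeR adjusted p = 0.0234), a call lost without control replicate 1 (0.113) or inhibition replicate 2 (0.0552). Reads of a processed pseudogene can be shared with its parent gene, so these levels are uncertain.

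The genes of Hars and Hars2, the cytosolic and mitochondrial histidine enzymes, lie head to head and share 195 exon bases on opposite strands. Hars2 fell with inhibition (log2 fold change -0.70), while Hars had a log2 fold change of 0.12 and did not pass (edgeR adjusted p = 0.0752).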
